A study of Homo sapiens with 9 samples.

Results

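MAP3K14, the kinase also called NIK, and 9 genes of the NF-kB pathway were followed by library and group in LAPC4 cells, an established human prostate cancer line. The 10 genes are MAP3K14, the NF-kB subunit genes NFKB1, NFKB2, RELA and RELB, the TRAF2, TRAF3, BIRC2 and BIRC3 genes whose proteins hold MAP3K14 in check, and the inhibitor gene NFKBIA. They were taken by symbol and make up 10 of the 60325 gene rows counted in each library. The set was chosen by the measured rescue-against-control difference of MAP3K14, which was higher in rescue libraries, so MAP3K14's values are given as a description with no test in any comparison. The other 9 were added as its pathway partners. These 9 and the further pathway lists below were chosen with earlier results of these data known. Their tests are therefore not independent of that choice.

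The study asked what UGT2B28, an enzyme that joins glucuronic acid to steroids, does in prostate cancer cells, and sequenced total RNA at day 30. Rescue libraries came from cells overexpressing UGT2B28 on the knockdown background, knockdown libraries from cells labelled as UGT2B28 knockdown, and control libraries from the control (NT) line, with 3 libraries in each of the 3 groups. All cells were LAPC4 grown in IMDM with 15% serum. Per the labels, puromycin at 3 ug/mL selected the knockdown and G418 at 1 mg/mL the rescue; no drug is named for the control, so drug and genotype cannot be told apart. The labels do not say whether a line was 1 clone or whether the libraries of a group came from separate cultures, so the p-values cover only how far these libraries scatter, and that scatter can be technical.

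In most cells, MAP3K14 protein is made and destroyed continuously: TRAF3 binds it, TRAF2 brings in BIRC2 and BIRC3, and these ubiquitin ligases mark it for degradation. Receptors such as LTBR, CD40 and TNFRSF12A break up this complex, MAP3K14 then accumulates and activates CHUK, and the NFKB2 precursor is cut to the p52 subunit that pairs with RELB. In the canonical branch NFKBIA holds dimers of RELA and the NFKB1 product in the cytoplasm until the IKK complex marks it for destruction. These steps act on proteins, and the counts here measure RNA.

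Gene counts summed to 9791044 to 13983102 per rescue library, 8292433 to 14185252 per knockdown library and 8132206 to 9410048 per control library. On group means the targeted gene did not follow the knockdown label: UGT2B28 averaged 73.8 ± 19.7 CPM (counts per 1000000, scaled by TMM factors) in rescue libraries, 5.90 ± 2.73 CPM in knockdown libraries and 6.01 ± 1.55 CPM in control libraries (SD, n = 3 each). Its log2 fold change for knockdown against control was -0.04 (SE 0.349, adjusted p = 0.957, edgeR). Its knockdown values ran from 3.05 to 8.48 CPM and its control values from 5.10 to 7.80 CPM. Without knockdown library 3 the UGT2B28 log2 fold change was 0.25, and with library 3 as the lone knockdown library it was -1.01. The middle group is therefore called the libraries labelled knockdown, and directions drawn from it are those of the label. Labelled-knockdown library 3 differed from libraries 1 and 2. A chi-square comparison of its counts with theirs gave 62.0 and 66.4 per degree of freedom, against 3.46 between libraries 1 and 2. Mitochondrial genes took 5.79% to 7.90% of counts in rescue, 10.2% to 15.8% in labelled-knockdown and 7.62% to 8.57% in control libraries. Labelled-knockdown libraries 1, 2 and 3 had 15.1%, 15.8% and 10.2%, with TMM factors of 0.793, 0.800 and 1.11. Rescue and control libraries had TMM factors of 1.03 to 1.09, so libraries 1 and 2 were further from the other groups than library 3 in both measures. Which of these libraries is atypical was not tested, and a fit without library 3 is not taken as the cleaner one. All 8 prostate luminal markers were above 1 CPM in every group, PTPRC, which marks leukocytes, had 0 counts in the 9 libraries, and summed fibroblast markers ran from 34.7 to 113 CPM in rescue, 35.2 to 37.8 CPM in labelled-knockdown and 16.7 to 66.9 CPM in control libraries. The part of these differences in the results was not tested.

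The promoter windows of 3 members are shown because MAP3K14 had the widest difference in counts and because NFKB2 and NFKBIA are known targets of NF-kB itself. Each window holds 300 bases, from 250 before to 50 after an annotated RefSeq start on GRCh38.p14, and runs 5′ to 3′ on the gene's strand. Capitals mark matches to the NF-kB consensus (the kB motif of 10 bases, searched on both strands), and in NFKB2 one pair of matches overlaps. The MAP3K14 window lies at chr17:45316971-45317270 on the minus strand, the second of 3 NFKB2 windows at chr10:102394328-102394627 on the plus strand and the NFKBIA window at chr14:35404700-35404999 on the minus strand.
MAP3K14: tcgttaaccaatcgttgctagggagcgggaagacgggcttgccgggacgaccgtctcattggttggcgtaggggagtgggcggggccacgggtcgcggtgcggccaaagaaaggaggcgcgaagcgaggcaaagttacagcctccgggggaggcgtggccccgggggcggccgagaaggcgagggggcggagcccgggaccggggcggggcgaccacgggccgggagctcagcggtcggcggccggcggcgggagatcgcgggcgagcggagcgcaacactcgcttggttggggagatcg
NFKB2: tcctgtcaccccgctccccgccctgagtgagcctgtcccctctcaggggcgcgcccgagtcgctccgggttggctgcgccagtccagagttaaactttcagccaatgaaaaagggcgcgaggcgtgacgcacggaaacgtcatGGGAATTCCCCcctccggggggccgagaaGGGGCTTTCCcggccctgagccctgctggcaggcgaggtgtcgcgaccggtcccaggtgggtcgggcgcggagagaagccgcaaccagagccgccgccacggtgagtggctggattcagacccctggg
NFKBIA: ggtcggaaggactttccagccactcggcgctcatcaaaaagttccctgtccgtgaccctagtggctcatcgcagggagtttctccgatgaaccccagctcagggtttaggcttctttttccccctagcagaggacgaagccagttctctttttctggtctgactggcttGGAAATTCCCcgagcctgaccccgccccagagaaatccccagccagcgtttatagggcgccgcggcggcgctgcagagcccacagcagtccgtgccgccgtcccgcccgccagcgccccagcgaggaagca
The MAP3K14 window holds no match. NFKB2 has 3 annotated starts with a window each, holding 0, 3 and 2 matches, and the one with the most matches is printed. In it the matches start 107, 106 and 78 bases before the annotated start, as GGGAATTCCC, GGAATTCCCC and GGGGCTTTCC. The NFKBIA match, GGAAATTCCC, starts 81 bases before it. RefSeq gave 14 windows for 9 members, RELB having none in the table. The motif was found in 6 of these windows, belonging to NFKB1, NFKB2, TRAF3, BIRC3 and NFKBIA, and in 3956 of all 35116 windows (11.3%). A match is a run of letters and not a measured binding site.

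MAP3K14 carried the difference for which the set was chosen. Its gene lies on the minus strand of GRCh38 at chr17:45263119-45317145 in the GENCODE 29 annotation. The rescue libraries held 85.9, 74.6 and 91.6 CPM, the labelled-knockdown libraries 32.6, 31.9 and 31.9 CPM and the control libraries 34.0, 41.3 and 36.9 CPM. Every rescue library was above all 6 others, and the 3 labelled-knockdown libraries lay below the 3 control libraries. These values rest on 853 to 1304 counts in a rescue library, 242 to 361 in a labelled-knockdown library and 292 to 405 in a control library. The group means were 84.0 ± 8.66 CPM, 32.1 ± 0.402 CPM and 37.4 ± 3.69 CPM in rescue, labelled-knockdown and control libraries (SD, n = 3 each). The fitted log2 difference was 1.17 for rescue against control and 1.39 for rescue against labelled knockdown. For labelled knockdown against control it was -0.22. In bulk RNA a change in the number of cells that express a gene and a change in RNA per cell cannot be told apart. The rescue differences stayed between 1.10 and 1.24 against control and between 1.34 and 1.64 against labelled knockdown when each of the 18 alternative settings was tried. These sizes and ranges describe the difference the set was chosen for and do not test it.

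**Figure D1:**
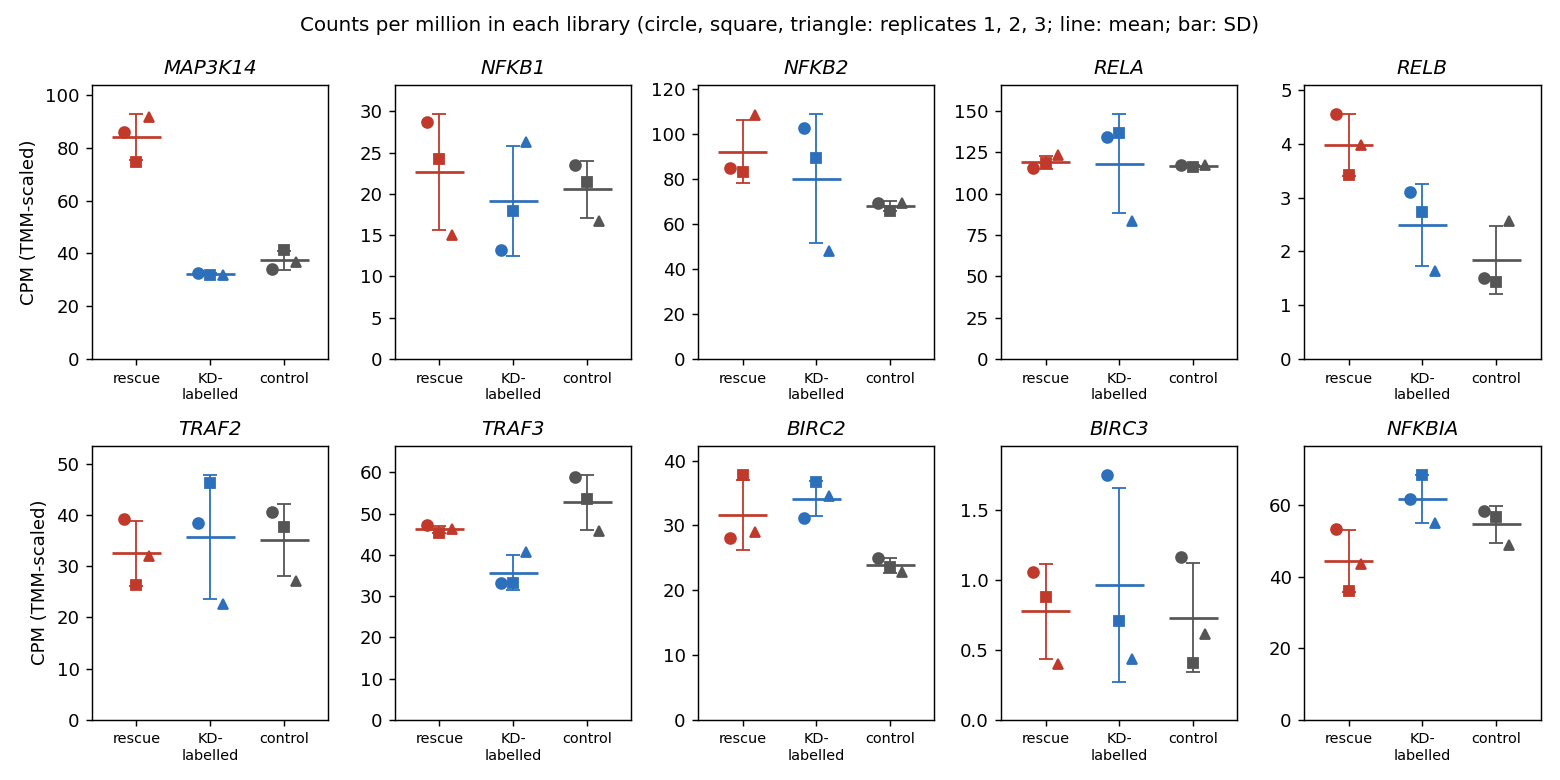
Each panel shows 1 gene, with CPM on a linear axis from 0 and the rescue, labelled-knockdown and control libraries from left to right; circle, square and triangle are libraries 1, 2 and 3, the line is the mean and the bar the SD (n = 3). MAP3K14 has its 3 rescue libraries at 74.6 to 91.6 CPM, above all others, while labelled-knockdown library 3 is the lowest of its group for NFKB2, RELA, RELB, TRAF2, BIRC3 and NFKBIA.

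An antisense gene shares part of the MAP3K14 locus and had a like pattern. MAP3K14-AS1 lies on the plus strand at chr17:45247925-45268630, and 713 bases of its exons coincide with MAP3K14 exons, which is 12.3% of the exon length of MAP3K14 and 18.9% of its own. Its values were 32.4, 33.0 and 40.5 CPM in rescue libraries, 14.9, 16.3 and 20.8 CPM in labelled-knockdown libraries and 18.6, 18.0 and 18.3 CPM in control libraries. Every rescue library was again above the other 6, while the labelled-knockdown and control ranges overlapped. The log2 fold change of rescue against labelled knockdown was 1.02 (SE 0.158, adjusted p = 0.00909, edgeR), and it passed under 17 of 18 alternatives. That of rescue against control was 0.95 (SE 0.158) and missed the threshold (adjusted p = 0.0528, edgeR; 6.21e-05 to 0.348 over the 18 alternatives). The antisense count equalled 37.7%, 44.2% and 44.3% of the MAP3K14 count in rescue libraries, 45.9%, 51.2% and 65.2% in labelled-knockdown libraries and 54.8%, 43.5% and 49.4% in control libraries. The strand setting of the counting was not stated, and without strand the reads of both genes in the shared exons cannot be told apart.

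**Figure D2:**
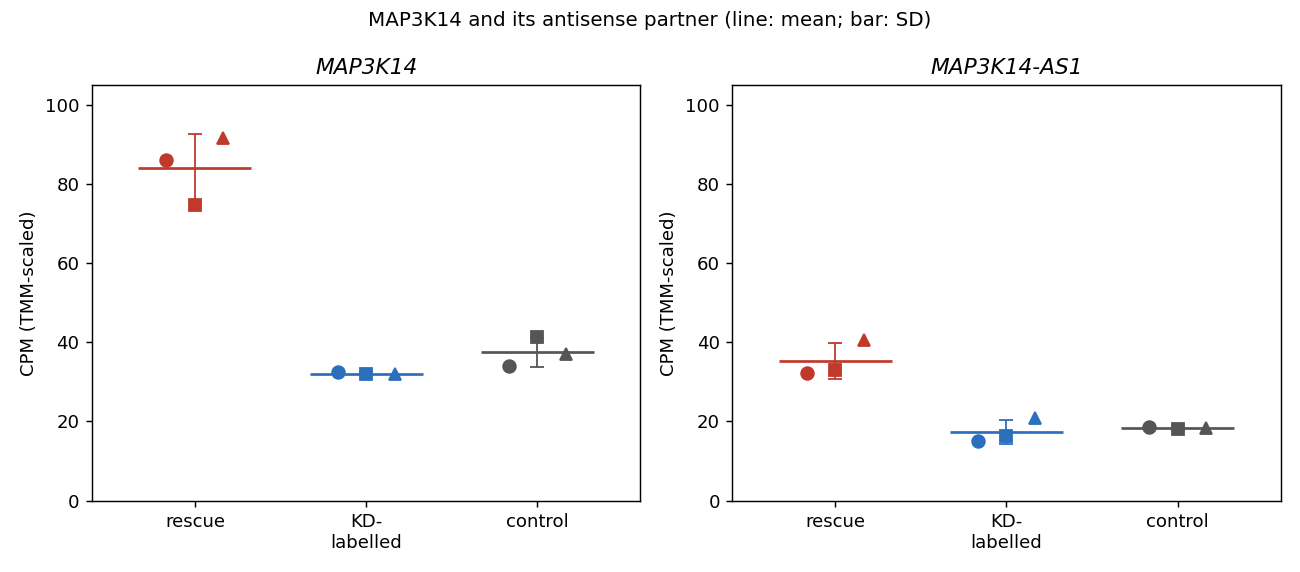
CPM of MAP3K14 (left) and of the antisense gene MAP3K14-AS1 (right) on the same linear axis, by group, with libraries 1, 2 and 3 as circle, square and triangle, the mean as a line and the SD as a bar (n = 3). Both genes have their 3 rescue libraries above the other 6, at means of 84.0 CPM for MAP3K14 and 35.3 CPM for MAP3K14-AS1.

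NFKB2 and RELB encode the p52 precursor and its usual partner, the pair that MAP3K14 activity brings into the nucleus. NFKB2 (chr10:102394110-102402529, plus strand) had 84.7, 83.2 and 108.2 CPM in rescue libraries, 102.7, 89.3 and 47.8 CPM in labelled-knockdown libraries and 69.3, 65.5 and 69.1 CPM in control libraries. The rescue and control values did not overlap, whereas labelled-knockdown library 3 was below all control libraries and libraries 1 and 2 above them. Where labelled-knockdown library 3 is fitted as the only library of its group, that lone library is assumed to vary like the other groups. Rescue against control was 0.44 on the log2 scale (SE 0.231, adjusted p = 0.553, edgeR), so the difference did not pass. Leaving out labelled-knockdown library 3 gave nearly the same size, 0.43, with an adjusted p of 0.0148 (edgeR). That fit passed 7.38% of all tested genes for rescue against control. It passed 39% for rescue against labelled knockdown and 32.9% for labelled knockdown against control. NFKB2 also passed for rescue against control, as higher, in a fit of just the groups compared, where 5.87% of all tested genes passed. Rescue against labelled knockdown was 0.20 (adjusted p = 0.605, edgeR), and without library 3 it was -0.064. Labelled knockdown against control was 0.23 (adjusted p = 0.629, edgeR) and without library 3 it was 0.50 (adjusted p = 0.00255, edgeR). With library 3 as the lone labelled-knockdown library it was -0.54, given as a size alone. Libraries 1 and 2 thus had higher values than the control libraries and library 3 lower ones.

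RELB (chr19:45001430-45038198, plus strand) was a low-count gene, with 69, 39 and 40 counts in rescue libraries, 23, 31 and 15 in labelled-knockdown libraries and 13, 14 and 25 in control libraries. These are 4.55, 3.41 and 3.97 CPM, 3.10, 2.74 and 1.63 CPM, and 1.51, 1.43 and 2.56 CPM in rescue, labelled-knockdown and control libraries. The rescue values lay above all 6 others. The log2 fold change of rescue against control was 1.11 (SE 0.365, 95% interval 0.30 to 1.92), close in size to that of MAP3K14, but with an unadjusted p of 0.0114 and an adjusted p of 0.300 (edgeR) it did not pass; the adjusted p ran from 0.0549 to 0.758 over the alternatives. Rescue against labelled knockdown was 0.68 (SE 0.357, adjusted p = 0.239, edgeR) and labelled knockdown against control 0.43 (SE 0.379, adjusted p = 0.585, edgeR). Without labelled-knockdown library 3 labelled knockdown against control gave 0.65, and with library 3 alone -0.20.

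RELA and NFKB1 encode p65 and the p50 precursor of the canonical branch, and neither passed in any comparison. RELA (chr11:65653596-65663094, minus strand) had 115, 118 and 123 CPM in rescue libraries, 134, 136 and 83.3 CPM in labelled-knockdown libraries and 117, 116 and 117 CPM in control libraries. It was the steadiest member between rescue and control, where the log2 fold change was 0.03 (95% interval -0.34 to 0.39, adjusted p = 0.980, edgeR). Rescue against labelled knockdown was 0.01 (adjusted p = 0.974) and labelled knockdown against control 0.01 (adjusted p = 0.972, edgeR), both being averages of library 3 with 2 libraries on the other side of the control values. Without library 3 these were -0.19 and 0.21, neither passing. With it as the lone labelled-knockdown library, which has no spread of its own, they were 0.53 and -0.51. Without rescue library 3 the first was -0.00065, and without labelled-knockdown library 1 or 2 the second was -0.08 or -0.11. NFKB1 (chr4:102501329-102617302, plus strand) had 28.7, 24.2 and 15.0 CPM in rescue libraries, 13.2, 17.9 and 26.3 CPM in labelled-knockdown libraries and 23.5, 21.4 and 16.7 CPM in control libraries. All 3 groups overlapped, and the log2 fold changes were 0.15 for rescue against control, 0.24 for rescue against labelled knockdown and -0.10 for labelled knockdown against control (adjusted p = 0.915, 0.609 and 0.882, edgeR). The first was -0.066 without rescue library 1, and the last was 0.10 without labelled-knockdown library 1 and 0.0090 without control library 1.

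TRAF3, the adaptor that binds MAP3K14 directly, was lowest in the labelled-knockdown libraries. TRAF3 (chr14:102777476-102911500, plus strand) had 47.1, 45.4 and 46.2 CPM in rescue libraries, 33.2, 33.2 and 40.6 CPM in labelled-knockdown libraries and 58.9, 53.5 and 45.7 CPM in control libraries. The labelled-knockdown values lay below all rescue and all control values, and rescue and control overlapped. Labelled knockdown against control was -0.56 on the log2 scale (SE 0.132, 95% interval -0.85 to -0.27), with an unadjusted p of 0.00139 and an adjusted p of 0.0877 (edgeR), short of the threshold. DESeq2, which passed 6.65% of all genes, gave an adjusted p of 0.00950. Without labelled-knockdown library 3 edgeR gave -0.66 (adjusted p = 0.000329), in a fit where 32.9% of all genes passed. Rescue against labelled knockdown was 0.37 (SE 0.132, adjusted p = 0.0950, edgeR). It was 0.47 without library 3 (adjusted p = 0.00395, edgeR), where 39% of all genes passed. Rescue against control was -0.19 (SE 0.131, adjusted p = 0.688, edgeR).

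TRAF2, the link between TRAF3 and the BIRC ligases, overlapped among the 3 groups. TRAF2 (chr9:136881912-136926607, plus strand) had 39.1, 26.3 and 32.0 CPM in rescue libraries, 38.4, 46.3 and 22.5 CPM in labelled-knockdown libraries and 40.5, 37.6 and 27.2 CPM in control libraries. Its log2 fold changes were -0.11, -0.14 and 0.03 for rescue against control, rescue against labelled knockdown and labelled knockdown against control (adjusted p = 0.932, 0.770 and 0.962, edgeR). Leaving out single libraries turned each of these signs, to 0.022 without rescue library 2 and 0.0040 without control library 1 for the first, to 0.10 without labelled-knockdown library 2 for the second, and to -0.21 for the third without that same library, -0.02 without labelled-knockdown library 1 and -0.13 without control library 3.

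BIRC2 and BIRC3 encode the ubiquitin ligases cIAP1 and cIAP2, and lie in the same orientation on chromosome 11. BIRC2 (chr11:102347211-102378670, plus strand) had 28.0, 37.8 and 29.01 CPM in rescue libraries, 31.2, 36.6 and 34.6 CPM in labelled-knockdown libraries and 25.0, 23.6 and 22.9 CPM in control libraries. All 6 rescue and labelled-knockdown values lay above the 3 control values. Labelled knockdown against control was 0.52 (SE 0.146, 95% interval 0.20 to 0.84), with an unadjusted p of 0.00449 and an adjusted p of 0.110 (edgeR). DESeq2, which passed 6.65% of all genes, gave an adjusted p of 0.0427. Without labelled-knockdown library 3 edgeR gave 0.52 (adjusted p = 0.0111), in a fit where 32.9% of all genes passed. Rescue against control was 0.41 (SE 0.145, adjusted p = 0.351, edgeR) and rescue against labelled knockdown -0.11 (SE 0.144, adjusted p = 0.645, edgeR). BIRC3 (chr11:102317450-102339403, plus strand) had 16, 10 and 4 counts in rescue libraries, 13, 8 and 4 in labelled-knockdown libraries and 10, 4 and 6 in control libraries. The 3 groups overlapped, and the fitted log2 fold changes of 0.13, -0.23 and 0.37 for rescue against control, rescue against labelled knockdown and labelled knockdown against control each had an SE above 0.6 (adjusted p = 0.969, 0.848 and 0.807, edgeR). Single libraries turned these signs, to -0.17 without rescue library 1 and -0.16 without control library 2 for the first, to 0.062 without rescue library 3 and 0.44 without labelled-knockdown library 1 for the second, and to -0.31 without labelled-knockdown library 1 for the third.

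NFKBIA encodes IkB-alpha, the inhibitor that NF-kB itself induces, and so is read in many cells as a sign of canonical activity. NFKBIA (chr14:35401511-35404749, minus strand) had 53.2, 36.0 and 43.4 CPM in rescue libraries, 61.5, 68.3 and 55.1 CPM in labelled-knockdown libraries and 58.3, 56.7 and 48.7 CPM in control libraries. The rescue values lay below all labelled-knockdown values and overlapped the control values. Rescue against labelled knockdown was -0.48 (SE 0.156, 95% interval -0.82 to -0.13, adjusted p = 0.0762, edgeR), short of the threshold. It was -0.55 without labelled-knockdown library 3 (adjusted p = 0.00312, edgeR), in a fit where 39% of all genes passed. Rescue against control was -0.30 (SE 0.156, adjusted p = 0.538, edgeR), opposite in sign to the MAP3K14 difference. Labelled knockdown against control was 0.18 (SE 0.156, adjusted p = 0.585, edgeR).

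**Figure D3:**
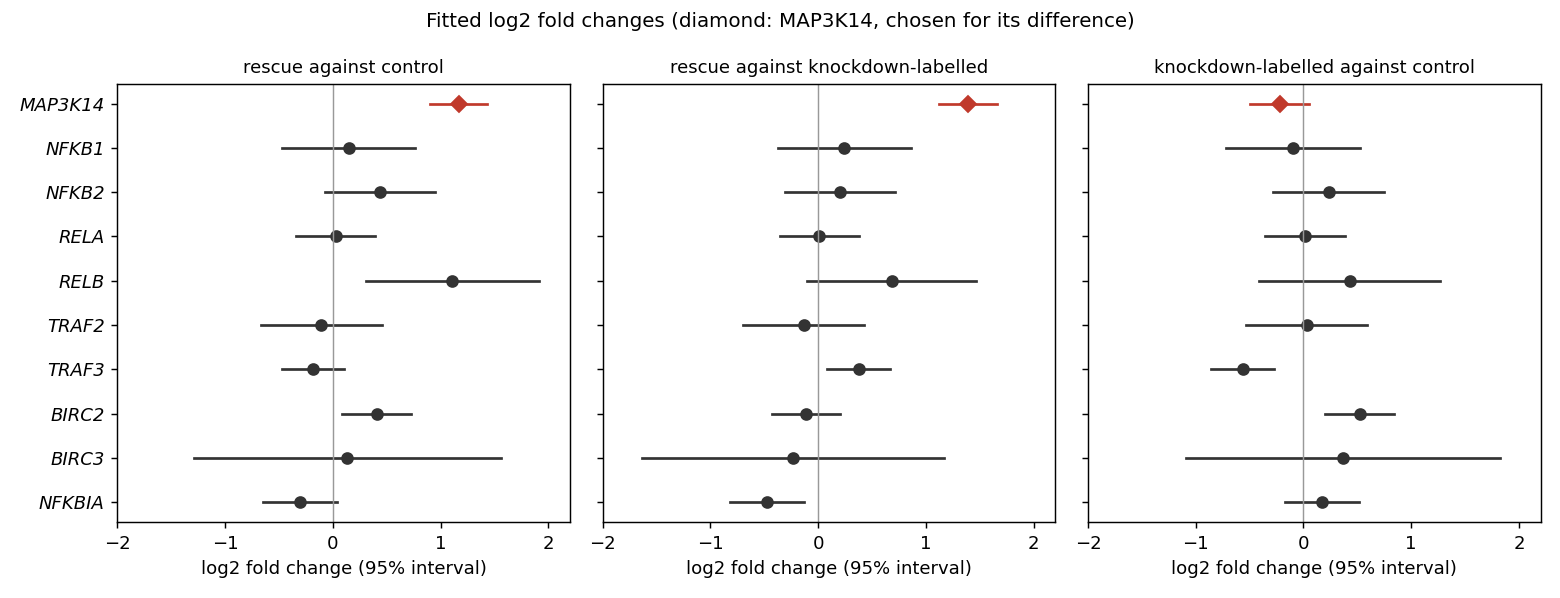
Fitted log2 fold changes of the 10 genes in the 3 comparisons, with 95% intervals; the red diamond is MAP3K14, which is shown as a description. For MAP3K14 the rescue differences are 1.17 and 1.39, RELB at 1.11 for rescue against control has an interval from 0.30 to 1.92, and the other intervals clear of 0 are those of BIRC2 for rescue against control, TRAF3 in both labelled-knockdown comparisons, NFKBIA for rescue against labelled knockdown and BIRC2 for labelled knockdown against control.

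Read together, none of the 9 partners of MAP3K14 had an adjusted p under 0.05 in any comparison in the edgeR fit of all 9 libraries. With 3 libraries per group, missing that threshold does not show that a gene was unchanged. For rescue against control, 25 of 16796 tested genes passed (0.149%, with 0.143% higher and 0.00595% lower). Of the 9 partners 2, RELB and BIRC2, had an unadjusted p under 0.05, which 10.5% of all tested genes had. DESeq2 and limma-voom passed 0 of the 9, beside 1.94% and 0.0774% of all tested genes. Of the 9, 6 were positive and 3 negative, with a median log2 fold change of 0.13 against -0.0066 over all tested genes. Between rescue and control, 3 of the 9 did not overlap, all higher (NFKB2, RELB and BIRC2), where 26.4% of all tested genes did not overlap with 12.8% higher and 13.6% lower. For rescue against labelled knockdown, 1651 genes passed (9.83%, with 4.44% higher and 5.39% lower). Of the 9 partners 2, TRAF3 and NFKBIA, had an unadjusted p under 0.05 against 28.3% of all genes, and 5 were positive and 4 negative. DESeq2 and limma-voom passed 0 of the 9, beside 16.1% and 10.2% of all tested genes. RELB and TRAF3 did not overlap upwards and NFKBIA downwards in that comparison, where 28.6% of all tested genes did not overlap, 14.6% higher and 14% lower. For labelled knockdown against control 1 gene passed (0.00595%, higher), and it was none of the 9. Among the 9, 2 genes, TRAF3 and BIRC2, had an unadjusted p under 0.05 against 19.1% of all tested genes. DESeq2 passed the same 2 of the 8 it tested, beside 6.65% of all genes, and limma-voom 0, beside 0.00595%. BIRC2 did not overlap upwards and TRAF3 downwards, where 21.2% of all tested genes did not overlap, 11% higher and 10.2% lower. The 3 comparisons share their libraries and are not independent of each other.

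Without labelled-knockdown library 3 the counts of passing members other than MAP3K14 were 1 for rescue against control (NFKB2), 2 for rescue against labelled knockdown (TRAF3 higher, NFKBIA lower) and 3 for labelled knockdown against control (NFKB2 and BIRC2 higher, TRAF3 lower). These are 11.1%, 22.2% and 33.3% of the 9. Over all 17286 genes tested in that fit, 1276, 6745 and 5691 passed in those comparisons, which is 7.38%, 39% and 32.9%.

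The proportion of MAP3K14 transcripts to those of TRAF3, BIRC2 and TRAF2 was highest in rescue libraries. Labelled-knockdown and control libraries overlapped for TRAF3 and TRAF2, and labelled-knockdown libraries were the lower for BIRC2. The MAP3K14 count was 1.82 ± 0.170 times the TRAF3 count in rescue libraries, 0.908 ± 0.107 times in labelled-knockdown libraries and 0.719 ± 0.124 times in control libraries (SD, n = 3 each). Against BIRC2 the ratio was 2.73 ± 0.659 in rescue, 0.945 ± 0.0890 in labelled-knockdown and 1.58 ± 0.200 in control libraries. Against TRAF2 it was 2.63 ± 0.377, 0.985 ± 0.382 and 1.10 ± 0.260 in rescue, labelled-knockdown and control libraries. These ratios contain MAP3K14 and therefore the difference it was chosen for; they are counts not corrected for gene length and say nothing of protein. Among the subunits, where MAP3K14 plays no part, the RELA count was 30.3 ± 4.72 times the RELB count in rescue libraries, 48.1 ± 4.20 times in labelled-knockdown libraries and 68.1 ± 19.6 times in control libraries, and no test was made of this ratio. The NFKB2 count was 4.53 ± 2.33, 4.86 ± 2.99 and 3.38 ± 0.657 times the NFKB1 count in rescue, labelled-knockdown and control libraries, with no test made.

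Levels between genes were compared as CPM per kilobase of exon. In rescue libraries RELA averaged 21.7, NFKB2 20.5, NFKBIA 18.6 and MAP3K14 14.5 CPM per kb, each overlapping the next in range; TRAF2 at 8.87 and BIRC2 at 6.97 also overlapped, and TRAF3 at 5.60, NFKB1 at 3.62, RELB at 1.31 and BIRC3 at 0.103 followed without overlap. In labelled-knockdown libraries MAP3K14 averaged 5.55 CPM per kb and stood between BIRC2 (7.54) and TRAF3 (4.32), overlapping neither. In control libraries it averaged 6.47 CPM per kb, between TRAF2 (9.58) and TRAF3 (6.38), and its range overlapped that of TRAF3. NFKBIA had the highest mean in labelled-knockdown and control libraries, at 26.0 and 23.0 CPM per kb, ahead of RELA at 21.6 and 21.4 CPM per kb. The ranges of NFKBIA and RELA overlapped in both groups. RELB and BIRC3, both induced by NF-kB in many cell types, were the lowest of the 10 in every group. Among 12458 tested protein-coding genes, MAP3K14 per length lay above 76.7% in rescue, 49.98% in labelled-knockdown and 55.0% in control libraries.

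**Figure D4:**
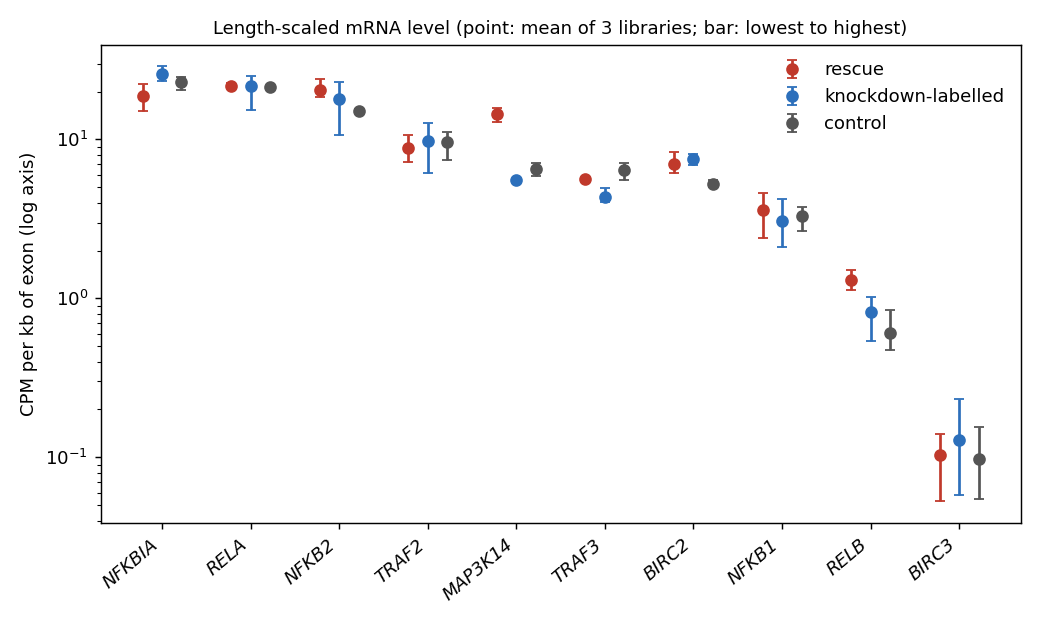
Mean CPM per kb of exon of the 10 genes on a log axis, with rescue, labelled-knockdown and control from left to right within each gene and bars from the lowest to the highest of 3 libraries. MAP3K14 is at 14.5 in rescue libraries and at 5.55 and 6.47 in the other groups, while RELB and BIRC3 are the lowest genes in each group.

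The genes whose profile over the 9 libraries was nearest to that of MAP3K14, by the mean absolute difference in centred log2 CPM among 12448 protein-coding genes, were STX1A (0.152), LRP1 (0.179), CUEDC1 (0.180), MYADM (0.190) and MPP3 (0.191). The log2 differences of rescue against control were 1.00, 1.18, 0.89, 1.07 and 0.95 for these 5 genes, and those of rescue against labelled knockdown 1.01, 1.27, 1.18, 0.91 and 1.24. They were picked for this likeness, so the values are a description.

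Beyond the 10 members, 82 further genes of the pathway were examined in lists of ligands, receptors, adaptors and kinases, inhibitors and deubiquitinases, and target genes; 53 had enough counts to be tested. For rescue against control 0 of 53 passed with edgeR, while 9 had an unadjusted p under 0.05, DESeq2 passed 1 (TNFRSF12A) and limma-voom 0. These counts stand beside 10.5% of all tested genes for the unadjusted p and 1.94% for DESeq2. For rescue against labelled knockdown 3 of 53 rose and 0 fell, where 4.44% of all tested genes were called higher and 5.39% lower; 13 of the 53 had an unadjusted p under 0.05 (28.3% of all genes), DESeq2 passed 8 (16.1% of all genes) and limma-voom 4 (10.2% of all genes). For labelled knockdown against control 0 passed with edgeR, 8 had an unadjusted p under 0.05 (19.1% of all genes), DESeq2 passed 4 of 51 (6.65% of all genes), all lower, and limma-voom 0. The median log2 fold change over the 53 was 0.09, 0.12 and 0.02 in these comparisons, against -0.0066, -0.0023 and 0.02 over all tested genes. Without labelled-knockdown library 3 the counts became 6, 23 and 22 of the 53, which is 11.3%, 43.4% and 41.5%, beside 7.38%, 39% and 32.9% of all genes tested in that fit.

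Ligands of the pathway were almost without counts: of 11, 10 had at most 4 counts in any library and only TNFSF13, which encodes APRIL, was tested. Its log2 fold change was -0.34 for rescue against control, 0.35 for rescue against labelled knockdown and -0.68 for labelled knockdown against control (adjusted p = 0.815, 0.572 and 0.332, edgeR). Of 11 receptors 7 were tested, and 0 passed in each comparison; TNFRSF12A, the Fn14 receptor for TWEAK, came nearest for rescue against control. It had 108, 101 and 122 CPM in rescue libraries, 90.4, 77.3 and 28.5 CPM in labelled-knockdown libraries and 48.7, 51.6 and 47.8 CPM in control libraries. Rescue and control did not overlap, and the log2 fold change was 1.16 (SE 0.313, adjusted p = 0.193, edgeR). IL1R1, the interleukin-1 receptor, had the smallest p of the receptors for labelled knockdown against control (0.52, adjusted p = 0.217, edgeR).

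Among 18 tested adaptors and kinases, IRAK1, a kinase below the interleukin-1 and Toll-like receptors, rose in rescue against labelled knockdown. It had 229, 207 and 190 CPM in rescue libraries, 152, 129 and 156 CPM in labelled-knockdown libraries and 201, 195 and 199 CPM in control libraries, for a log2 fold change of 0.52 (SE 0.122, adjusted p = 0.0270, edgeR). The labelled-knockdown values were below all others, and the rescue and control values overlapped. Of 14 inhibitors and deubiquitinases, OTULIN, which removes linear ubiquitin chains, and OTUD7B, known to remove ubiquitin from TRAF3, rose in the same comparison, by 0.59 and 0.52 on the log2 scale (SE 0.154 and 0.135, adjusted p = 0.0384 and 0.0393, edgeR). OTULIN had 42.2, 55.4 and 45.7 CPM in rescue libraries, 25.4, 35.2 and 34.2 CPM in labelled-knockdown libraries and 37.4, 33.9 and 36.4 CPM in control libraries. OTUD7B had 58.1, 58.8 and 56.8 CPM in rescue libraries, 35.5, 36.9 and 49.1 CPM in labelled-knockdown libraries and 57.1, 58.7 and 52.4 CPM in control libraries. Leaving out 1 library at a time, the log2 fold change stayed between 0.44 and 0.60 for IRAK1, 0.46 and 0.67 for OTULIN and 0.43 and 0.67 for OTUD7B. The call was kept in 2 of 9 such fits for IRAK1, 1 for OTULIN and 1 for OTUD7B, with adjusted p-values over all alternatives up to 0.119, 0.145 and 0.180 (edgeR, DESeq2 and limma-voom). MALT1 (0.69, adjusted p = 0.214) and NFKBIZ (0.50, adjusted p = 0.205) had the smallest p of the adaptors and of the inhibitors for rescue against control (edgeR).

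Of 27 target genes 13 were tested, and 0 passed in each comparison with edgeR. The other 14 had at most 5 counts in any library, among them the classical inflammatory targets CXCL8, IL6, ICAM1 and CCL20. Over all lists 7 genes had 0 counts in the 9 libraries, and 3 counts, the limit that a count of 0 allows, correspond to 0.198 to 0.404 CPM per library. The smallest p among targets belonged to IRF1 for rescue against control (0.80, adjusted p = 0.370), and to TNFAIP2 for rescue against labelled knockdown (0.56, adjusted p = 0.0670) and labelled knockdown against control (-0.88, adjusted p = 0.0774, edgeR). DESeq2 passed 2 of 13 for rescue against labelled knockdown, IRF1 and TNFAIP2, both higher, beside 16.1% of all genes. For labelled knockdown against control it passed 1 of 12, TNFAIP2, as lower, beside 6.65% of all genes. DESeq2 passed 0 for rescue against control, and limma-voom 0 in each comparison. Of the 13, 8 were positive for rescue against control, 6 for rescue against labelled knockdown and 8 for labelled knockdown against control, with medians of 0.12, -0.01 and 0.08.

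**Figure D5:**
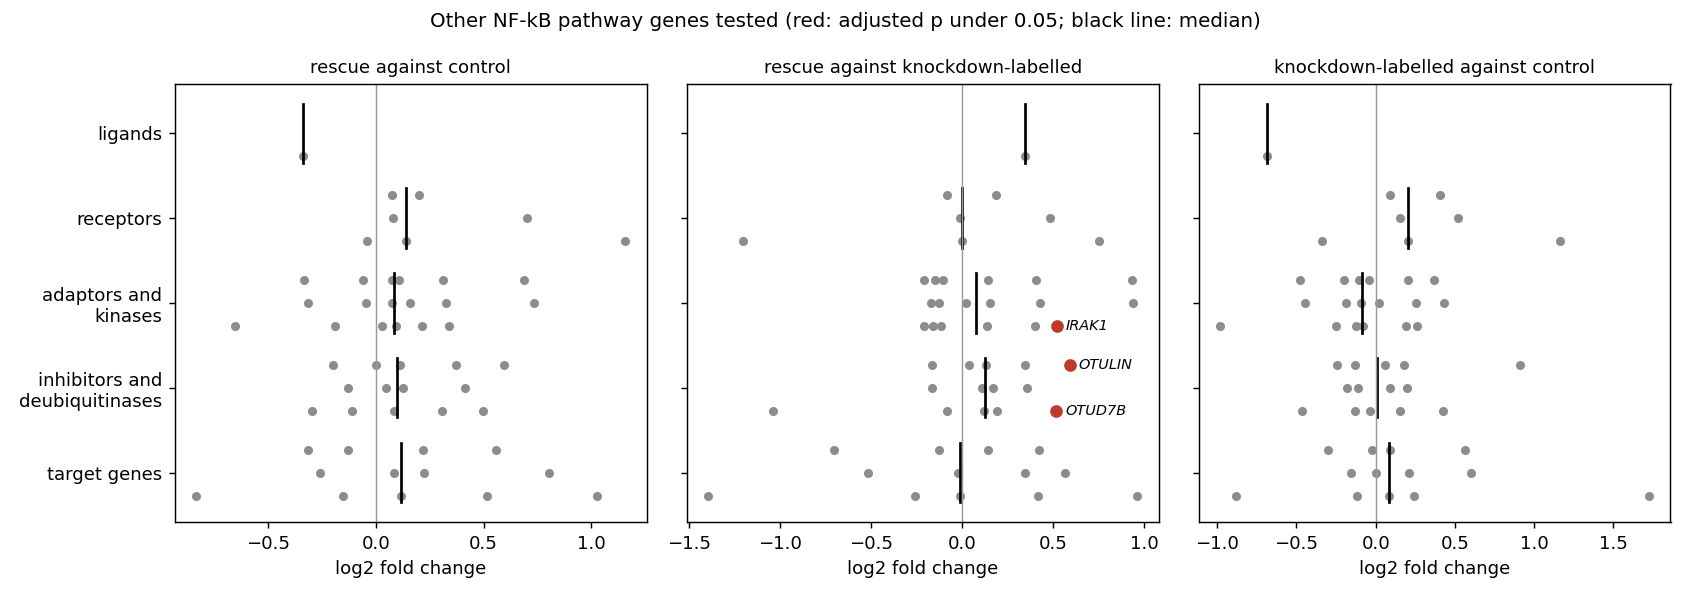
Log2 fold changes of the 53 tested pathway genes that are not among the 10, by list, in the 3 comparisons; each point is a gene, its height within a row has no meaning, the black line is the median and red marks an adjusted p under 0.05. IRAK1, OTULIN and OTUD7B are red for rescue against labelled knockdown at 0.52, 0.59 and 0.52, and no point is red in the other panels.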

How the data were processed

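RNA sequencing of LAPC4 total RNA gave 9 paired-end libraries. The authors deposited raw, unnormalized read counts for each gene. The submitters' processing notes name STAR, HTSeq, cutadapt and FastQC and the hg38 build; for versions, annotation and strand setting, nothing was given in the sources used here. Rows that name no gene were left out of totals and tests: reads on no feature were 43.7% to 48.7% of counts, ambiguous reads 2.36% to 3.14% and reads not unique 7.67% to 11.6%. Gene symbols were matched to GENCODE 29 for positions and exon length (55690 of 60325 rows, all 10 members).

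The test was the quasi-likelihood F test of edgeR 4.0.16 (R 4.3.3) after TMM scaling, on genes kept by filterByExpr (minimum count 10), in 1 fit of the 9 libraries with 6 residual degrees of freedom, with Benjamini-Hochberg adjustment over 16796 genes, with a threshold of 0.05. The SE of a log2 fold change is its size over the root of F; intervals are 95%. CPM use TMM-scaled library sizes. These intervals and floors of 3 counts cover counting error or the fitted spread only. DESeq2 1.42.0 and limma 3.58.1 (voom) were alternatives, beside other scalings and filters, the replicate block, and leaving libraries out.

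The members and lists were chosen with earlier results of these data known. Named pathway genes are those passing, or else the smallest p per list and comparison; the 5 nearest genes used log2 CPM with a prior count of 2. Replicates were compared first; no pair of libraries agreed within sampling noise.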

Additional observations from a re-analysis of the deposited data

How the results depend on the processing

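The counts of genes passing moved most. For rescue against control, 25 genes passed; no filter on low counts gave 401, DESeq2 326, limma-voom 13, a fit of just the groups compared 962, the replicate block 4 and leaving out labelled-knockdown libraries 1 and 2 977, with 1 to 1276 when 1 library was left out. For rescue against labelled knockdown, 1651 passed; the same settings other than limma-voom gave 2636, 2702, 7, 442 and 3619, with 134 to 6745. For labelled knockdown against control, 1 passed; the settings gave 1045, 1009, 0, 0 and 2115, library size alone 153, with 0 to 5691. Of the 9 members other than MAP3K14, 0 passed in each comparison. With just the groups compared, 1 of 8 tested (NFKB2) passed for rescue against control, beside 5.87% of all genes. For labelled knockdown against control, 1 passed with no filter, where 1045 genes passed. DESeq2 passed 2 of 8 in that comparison (BIRC2 and TRAF3), beside 6.65% of all genes. Leaving out 1 library gave 0 to 1, 0 to 2 and 0 to 3. The highest counts came without labelled-knockdown library 3, where 7.38%, 39% and 32.9% of all genes passed. The cause was not tested; fewer libraries entered some of these fits. Replicate numbers did not pair the libraries (correlations of deviations from -0.355 to 0.0784), so the block is given here alone.

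Library size alone, without scaling factors, moved the median of all genes to 0.24 for rescue against labelled knockdown and -0.21 for labelled knockdown against control, and 1327 of its 1557 calls in the first were higher, against 745 of 1651. Under it, rescue against labelled knockdown was 0.17 for TRAF2, 0.13 for BIRC2 and 0.078 for BIRC3, and labelled knockdown against control was -0.056 for NFKB2, -0.26 for RELA, -0.26 for TRAF2 and -0.065 for NFKBIA. These 7 sign changes go with the shift of all genes.

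Other reversals arose when libraries were left out or when the filter, the test or the block was changed. With labelled-knockdown libraries 1 and 2 left out, rescue against labelled knockdown was -0.18 for NFKB1, 0.56 for TRAF2 and 0.87 for BIRC3, and labelled knockdown against control 0.33 for NFKB1, -0.54 for NFKB2, -0.51 for RELA, -0.20 for RELB, -0.66 for TRAF2, -0.74 for BIRC3 and -0.014 for NFKBIA. RELA for labelled knockdown against control was -0.00090 with no filter, -0.022 with limma-voom and -0.0048 with the replicate block, and TRAF2 -0.0026 with limma-voom. Leaving out 1 library at a time, rescue against control ran from -0.066 to 0.37 for NFKB1, -0.27 to 0.022 for TRAF2 and -0.17 to 0.61 for BIRC3. Rescue against labelled knockdown ran from -0.064 to 0.42 for NFKB2, -0.19 to 0.13 for RELA, -0.38 to 0.10 for TRAF2 and -0.56 to 0.44 for BIRC3. Labelled knockdown against control ran from -0.38 to 0.10 for NFKB1, -0.11 to 0.21 for RELA, -0.21 to 0.28 for TRAF2 and -0.31 to 0.86 for BIRC3. Of 482 alternative values of the 9 tested members, 429 kept direction and call and 15 passed, 2 of them with the sign reversed. The sign reversed in 40, 7 under library size alone and 33 under other settings. These counts include the fit with a lone labelled-knockdown library, which has no spread of its own. RELB and BIRC3 are limited by depth, at 69 counts or fewer per library.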
